A study of Homo sapiens with 20 samples.

Results

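The mitochondrial ribosomal protein genes were followed in 20 expression arrays of LP-1 and Raji cells given a BET inhibitor or its inactive enantiomer. A gene was a member when a probe set with 1 gene symbol carried an MRPL or MRPS symbol followed by a number and, in some, a letter from A to C. The rule found 65 genes, 42 with an MRPL and 23 with an MRPS symbol, each on exactly 1 of the 22011 probe sets. Of these, 43 code for proteins of the large subunit, MRPS30 among them in spite of its symbol, and 22 for proteins of the small subunit. Another 18 probe sets list an MRPL or MRPS gene beside other symbols and were left out of the members. The genes lie on 21 chromosomes, and all 65 matched a RefSeq gene identifier.

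LP-1 is a multiple myeloma cell line and Raji is a Burkitt lymphoma cell line. Each line was measured untreated at 0 h, after 500 nM of the BET inhibitor for 4 or 8 h, and after 500 nM of the inactive enantiomer for 4 or 8 h. That gives 10 groups of 2 arrays, which the series calls biological replicates. The labels do not name the compound, and each line stands for 1 cell line rather than for its tumour type. BET inhibitors are small molecules that keep bromodomains from binding acetylated histones. The enantiomer is the mirror-image compound, so the comparison of the 2 compounds at the same dose and time was taken as the response.

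Mitochondria carry their own ribosome, which translates the few proteins that mitochondrial DNA encodes, all of them parts of the oxidative phosphorylation complexes. Its RNAs come from mitochondrial DNA, but its proteins are all encoded in the nucleus, made in the cytosol and imported. Some have a counterpart in bacterial ribosomes, and others are found in mitochondria alone. Here 36 members had a bacterial counterpart and 28 were specific to mitochondria, with MRPL55 not assigned to either.

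The deposited values are log2 signals made by RMA, a method that combines the probes of a gene into 1 value. Array medians ran from 5.13 to 5.39, and replicate arrays correlated with r between 0.973 and 0.989 over all probe sets. In untreated cells the B cell markers had a median percentile of 91.6 among the probe sets in Raji and 50.2 in LP-1, and the plasma cell markers 50.7 and 93.1. MYC was 4.94-fold lower with the inhibitor at 4 h in LP-1 and 2.65-fold lower in Raji (limma adjusted p = 5.25e-05 and 0.00129), and HEXIM1 was 2.06-fold and 3.82-fold higher (limma adjusted p = 0.00269 and 0.000101). The members gave high signals: their mean signals had a median percentile of 82.6, and only MRPL49, at 43.3, lay under the 50th. In RNA from a whole culture, a change in a fraction of the cells and a change in every cell cannot be told apart.

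The stretches of 250 bases just before the start site of 4 members are shown because MRPL50 and MRPS2 had the largest lower calls of the 4 treatment comparisons, MRPL41 had the only higher one, and MRPS34, called as well, holds matches to a motif frequent among the members. They come from RefSeq on GRCh38.p14 and run 5′ to 3′ on the strand of the gene. MRPL50 lies at chr9:101398619-101398868 on the minus strand, MRPS2 at chr9:135500432-135500681 on the plus strand, MRPS34 at chr16:1773135-1773384 on the minus strand and MRPL41 at chr9:137551629-137551878 on the plus strand. Capitals mark matches, on either strand, to GGGCGG, the core of the SP1 site, or to CCGGAAG, bound by ETS factors and GABP.
MRPL50: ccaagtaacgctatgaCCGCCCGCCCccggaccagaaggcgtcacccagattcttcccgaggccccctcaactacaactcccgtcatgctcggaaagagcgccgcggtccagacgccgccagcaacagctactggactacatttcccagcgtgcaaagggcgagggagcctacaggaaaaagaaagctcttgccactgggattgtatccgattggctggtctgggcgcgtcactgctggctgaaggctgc
MRPS2: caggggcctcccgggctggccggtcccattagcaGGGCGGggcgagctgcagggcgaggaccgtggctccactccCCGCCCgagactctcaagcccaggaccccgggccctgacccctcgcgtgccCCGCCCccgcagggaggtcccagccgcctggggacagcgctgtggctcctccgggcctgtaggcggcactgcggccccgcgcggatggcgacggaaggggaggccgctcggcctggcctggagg
MRPS34: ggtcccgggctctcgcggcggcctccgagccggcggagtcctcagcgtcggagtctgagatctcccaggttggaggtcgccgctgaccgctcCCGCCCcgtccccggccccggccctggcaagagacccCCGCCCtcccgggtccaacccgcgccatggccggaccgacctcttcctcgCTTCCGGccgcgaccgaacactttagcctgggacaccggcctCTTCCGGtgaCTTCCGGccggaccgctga
MRPL41: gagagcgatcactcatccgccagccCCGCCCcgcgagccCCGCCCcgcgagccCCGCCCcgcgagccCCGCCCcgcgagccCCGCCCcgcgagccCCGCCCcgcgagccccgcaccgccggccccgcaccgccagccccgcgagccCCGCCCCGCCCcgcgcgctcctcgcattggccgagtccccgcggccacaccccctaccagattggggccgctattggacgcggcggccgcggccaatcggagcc
The MRPL50 stretch holds 2 matches to GGGCGG and that of MRPS2 holds 3. The MRPS34 stretch holds 3 matches to CCGGAAG and 2 to GGGCGG. The MRPL41 stretch holds 8 matches to GGGCGG. MRPL12 and MRPS5, the other members called in these comparisons, are not shown. The stretch of MRPL12 holds no match to either motif, and that of MRPS5 holds 3 to GGGCGG. Among the called members only MRPS34 has a match to CCGGAAG, against 41.4% of the members with a promoter window.

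Over the members' promoters, CCGGAAG was found in 35.6% of 73 windows, against 10.3% of all 35116 windows of the same length. The windows run from 250 bases before to 50 after a start site, and 58 of the 65 members have at least 1. The YY1 motif was found in 15.1% of the members' windows and 1.44% of all. GGGCGG was found in 61.6% and 45.0%, the NRF1 motif in 9.59% and 5.78%, and CACGTG, the E-box bound by MYC and MAX, in 8.22% and 7.26%. Each was searched on both strands and on its own, so matches to different motifs may share bases. The 6 members with an E-box were MRPL14, MRPL22, MRPL37, MRPL49, MRPS2 (in its other window) and MRPS33. Their median response in LP-1, averaged over 4 and 8 h, was -0.12 on the log2 scale, against -0.25 for the members without one. For CCGGAAG the medians with and without were both -0.24. A match describes letters in a window and is no measure of binding.

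In LP-1 at 4 h the members as a group were lower with the inhibitor than with the inactive enantiomer, by a median of 0.26 on the log2 scale. The median log2 change was -0.26 over the members and -0.04 over all probe sets, and 60 of 65 members lay below 0, against 55.1% of all probe sets. In 39 members both inhibitor arrays lay below both control arrays, or 60.0%, against 26.4% of all probe sets, and in 2 they lay above, against 17.6%. Only MRPL50 fell past the threshold of an adjusted p under 0.05, 1 of 65 members where 2.28% of all probe sets were called. At an unadjusted p under 0.05, 11 members were lower and 0 were higher. With quantile normalization the median of the members was -0.10 with 44 below 0. The size of the shift at 4 h thus depends on the scaling, while its sign stayed negative. As deposited, the mean over the members had an SD of 0.09 between replicate arrays. The median with quantile normalization is about that size, so under that scaling the direction is not settled. The upper part of the LP-1 inhibitor arrays at 4 h was lower as well. The 75th percentile of all probe sets was 6.80 and 7.03 with the inhibitor and 7.12 and 7.16 with the control. Most members are bright, and the part of this array-wide difference in their shift was not tested.

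MRPL50, a mitochondria-specific protein of the large subunit, stood at 7.33 and 7.60 on the LP-1 inhibitor arrays at 4 h and at 8.26 and 8.40 on those of the inactive enantiomer. The untreated LP-1 arrays gave 8.34 and 8.46, so the inhibitor arrays lay below all 4 others. The log2 change was -0.87 ± 0.15 (SE, n = 2 arrays a group), a 1.82-fold lower signal (limma adjusted p = 0.0103). At 8 h the values were 8.00 and 8.00 against 8.25 and 8.46, a log2 change of -0.35 with an adjusted p of 0.216 by limma. In Raji the arrays of the 2 compounds overlapped at both times, with log2 changes of 0.07 and 0.04, the first of which became -0.05 with quantile normalization.

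Of the other members of smallest p at 4 h in LP-1, none passed. MRPS31, a mitochondria-specific protein of the small subunit, had a log2 change of -0.57 ± 0.19 (SE). MRPS2, which has a bacterial counterpart, had -0.44 ± 0.16, MRPL46, part of the central protuberance of the large subunit, -0.53 ± 0.19, MRPS35 -0.38 ± 0.14 and MRPL19 -0.43 ± 0.16. In each of these 5 both inhibitor arrays lay below both control arrays. The MRPL50 call was lost when the inhibitor replicate 1 or either control array was left out, with limma adjusted p = 0.0932, 0.0683 and 0.117, and leaving out the inhibitor replicate 2 gave 3 called members. It was also lost when LP-1 was fitted alone (limma adjusted p = 0.0649).

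**Figure D1:**
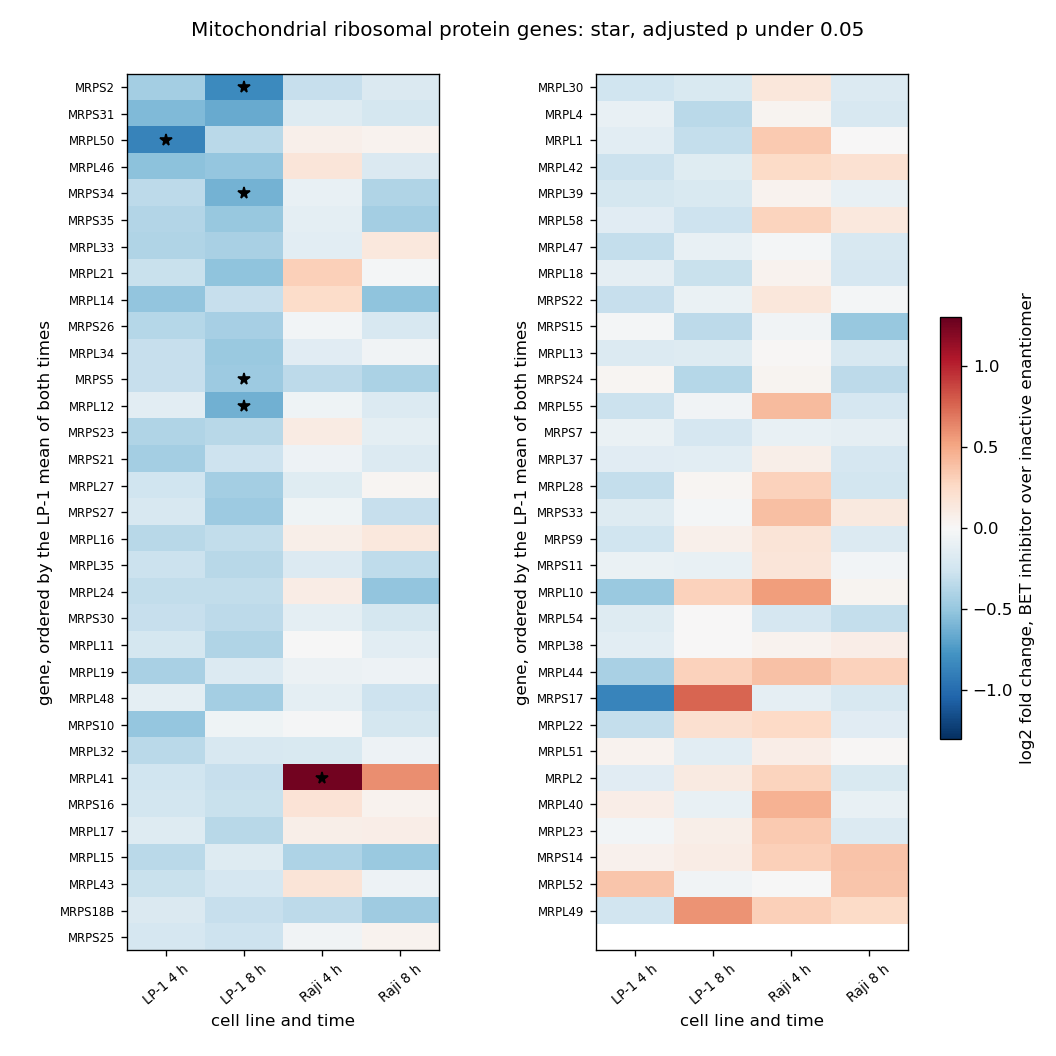
Log2 fold change of each of the 65 genes, inhibitor over inactive enantiomer, in LP-1 and Raji at 4 and 8 h (columns); rows are genes ordered by the LP-1 mean of both times, blue is lower, red is higher and a star marks an adjusted p under 0.05. Most cells of the LP-1 columns are blue, with 60 genes below 0 at 4 h and 53 at 8 h, while Raji at 4 h has 28.

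At 8 h in LP-1 the members were again lower, with a median log2 change of -0.27 against 0.06 over all probe sets, which on balance were higher. Of the 65 members 53 lay below 0, against 41.0% of all probe sets, and in 35 both inhibitor arrays lay below both controls, against 16.3%. In 3 they lay above both, against 27.9%. MRPS2, MRPL12, MRPS34 and MRPS5 fell, 4 of 65 members where 5.73% of all probe sets were called and 1.97% were called lower. At an unadjusted p under 0.05, 19 members were lower and 1 was higher. The median stayed between -0.35 and -0.27 under the other scalings. At this time the 75th percentile of all probe sets was 7.10 and 7.05 with the inhibitor and 6.91 and 7.07 with the control.

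MRPS2 read 7.11 and 6.98 with the inhibitor at 8 h and 7.83 and 7.91 with the inactive enantiomer. The inhibitor arrays lay below every other LP-1 array of this gene, those with the inhibitor at 4 h included, and the 4 h values were 7.51 and 7.14 against 7.79 and 7.74. The log2 change at 8 h was -0.83 ± 0.16 (SE), a 1.77-fold lower signal (limma adjusted p = 0.0103). In Raji the changes were -0.30 at 4 h and -0.19 at 8 h, neither past the threshold.

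MRPL12, a protein of the stalk where translation factors dock, read 7.24 and 7.06 with the inhibitor at 8 h and 7.78 and 7.77 with the control. At 4 h its arrays overlapped, at 7.60 and 7.37 against 7.58 and 7.67. The log2 change at 8 h was -0.62 ± 0.16 (SE), with an adjusted p of 0.0405 by limma. At 4 h it was -0.14, and 0.07 with quantile normalization.

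MRPS34, a mitochondria-specific protein of the small subunit, read 8.28 and 7.86 with the inhibitor at 8 h and 8.58 and 8.78 with the control. The inhibitor arrays lay lower, with the larger spread between them. The log2 change was -0.61 ± 0.16 (SE, limma adjusted p = 0.0431), after -0.34 ± 0.16 at 4 h.

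MRPS5, a small subunit protein with a bacterial counterpart, read 7.67 and 7.77 with the inhibitor at 8 h and 8.16 and 8.23 with the control. At 4 h it read 7.95 and 8.09 against 8.28 and 8.37, again apart. The log2 changes were -0.48 ± 0.13 (SE) at 8 h, with an adjusted p of 0.0455 by limma, and -0.30 ± 0.13 at 4 h.

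MRPS35 at -0.49 ± 0.14 (SE) and MRPS31 at -0.65 ± 0.19 came next at 8 h, with adjusted p of 0.0589 and 0.0702 by limma. The 8 h calls rest on every array. Without the inhibitor replicate 1 the 2 called members were MRPS2 and MRPS34 (limma adjusted p = 0.0430 and 0.0359). None of the 4 was called without any of the other 3 arrays: the 1 call without the inhibitor replicate 2 was MRPS31 at -0.91 (limma adjusted p = 0.0301), 1 other member was called without the control replicate 1, and 0 without the control replicate 2. Fitting LP-1 alone left 1 called member, and centring the arrays, quantile normalization or leaving out the probe sets of lowest mean gave 7, 10 and 7.

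**Figure D2:**
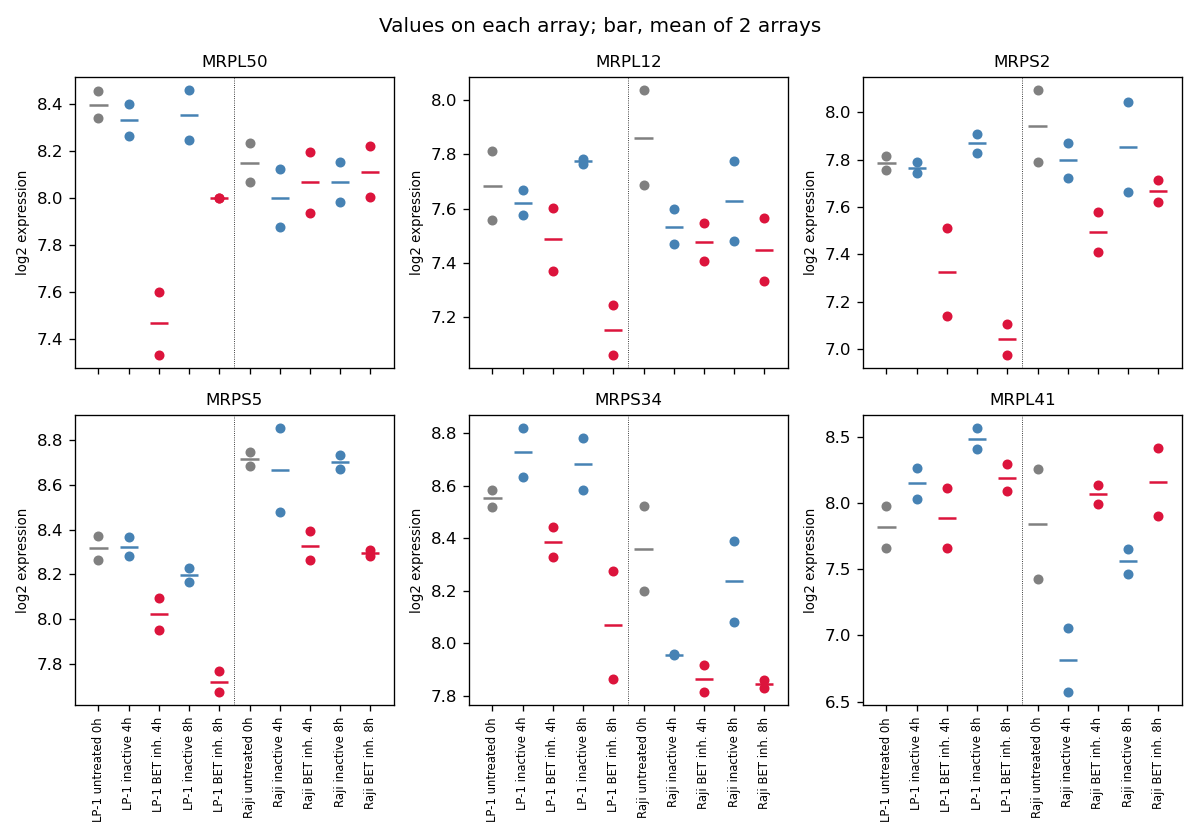
Log2 expression (vertical axis) on each of the 20 arrays for the 6 genes called at 4 or 8 h, by group (horizontal axis; LP-1 left of the dotted line, Raji right); points are arrays and bars are means of 2 arrays. MRPL50 with the inhibitor at 4 h in LP-1 reads 7.33 and 7.60 against 8.26 and 8.40, and MRPL41 in Raji at 4 h reads 8.14 and 7.99 against 7.05 and 6.57.

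Averaged over 4 and 8 h in LP-1, 8 members fell and 0 rose, 8 of 65 where 7.06% of all probe sets were called and 4.44% were called lower. They were MRPL50, MRPS2, MRPS31, MRPS35, MRPS5, MRPS34, MRPL46 and MRPS26, of which 6 belong to the small subunit and 2 to the large. The largest log2 changes were those of MRPS2 at -0.63 ± 0.11 (SE) and of MRPS31 and MRPL50, both at -0.61, with adjusted p of 0.00481, 0.0168 and 0.00399 by limma. MRPS26 had the smallest margin, at -0.40 ± 0.11 with an adjusted p of 0.0434 by limma. Of the 65 members 61 lay below 0, against 45.7% of all probe sets, with a median of -0.24 against 0.02.

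The count of 8 fell to 3 without the 4 h inhibitor replicate 1, to 4 without the 8 h inhibitor replicate 2 or the 4 h control replicate 1, and to 2 without the 4 h control replicate 2 or the 8 h control replicate 2. Fitting LP-1 alone gave 2, and leaving out the probe sets of lowest mean gave 14.

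In 22 members both inhibitor arrays lay below both control arrays at 4 h and again at 8 h in LP-1, against 8.29% of all probe sets. From the large subunit these were MRPL4, MRPL13, MRPL16, MRPL21, MRPL24, MRPL27, MRPL35, MRPL39, MRPL43, MRPL46, MRPL50, MRPL58 and MRPS30. From the small subunit they were MRPS2, MRPS5, MRPS16, MRPS18B, MRPS23, MRPS26, MRPS31, MRPS34 and MRPS35. MRPL58, also known as ICT1, releases the peptide from stalled ribosomes, and its log2 changes were -0.15 at 4 h and -0.27 at 8 h, neither called. MRPS30 had -0.30 and -0.34 and MRPS18B -0.19 and -0.30. In all, 49 members were below 0 at both times in LP-1, against 25.9% of all probe sets.

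The small and large subunit shared the shift. The median log2 change in LP-1 was -0.26 for the 43 large subunit members and -0.28 for the 22 small subunit members at 4 h, and -0.21 and -0.29 at 8 h. Members with a bacterial counterpart had -0.27 and -0.29 at the same times, and those specific to mitochondria -0.25 and -0.24. These medians were not tested against each other.

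In Raji at 4 h the members had no common direction. The median log2 change was 0.05, against 0.01 over all probe sets, 28 of 65 lay below 0, and the median became -0.09 with quantile normalization. Leaving out 1 array at a time gave medians from -0.055 to 0.15, so the sign depends on single arrays. Control replicate 1 had the lowest mean over the members of all 20 arrays, at 7.48, and its part was not tested. MRPL41 alone was called, as higher, where 1.78% of all probe sets were called. At an unadjusted p under 0.05, 1 member was lower and 3 were higher. In 16 members both inhibitor arrays lay above both controls, against 23.5% of all probe sets, and in 10 below, against 20.2%.

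MRPL41, a mitochondria-specific protein of the large subunit, read 8.14 and 7.99 with the inhibitor at 4 h in Raji and 7.05 and 6.57 with the inactive enantiomer. The untreated Raji arrays lay far apart, at 7.43 and 8.25. Both control arrays at 4 h lay below them, and both inhibitor arrays at 4 h lay between them. The log2 change was 1.25 ± 0.27 (SE), a 2.38-fold higher signal (limma adjusted p = 0.0375). At 8 h it read 8.42 and 7.90 against 7.47 and 7.65, a change of 0.60 ± 0.27, not called. Both control arrays at 8 h lay between the untreated arrays, and the inhibitor array at 8.42 lay above them. In LP-1 the changes of MRPL41 were -0.26 and -0.30. The 4 h call was lost with any of the 4 arrays left out, where the limma adjusted p ran from 0.0727 to 0.202, and when the arrays were centred or quantile normalized or Raji was fitted alone.

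The next smallest p in Raji at 4 h belonged to MRPS5 at -0.34 ± 0.13 (SE), MRPL55 at 0.41 ± 0.17, MRPL40 at 0.45 ± 0.18, MRPL10 at 0.54 ± 0.27 and MRPL23 at 0.34 ± 0.17. None passed in the fit as reported. With quantile normalization MRPS5, at -0.45, was the 1 call of this comparison.

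At 8 h in Raji the median log2 change was -0.18, against -0.00 over all probe sets, and 46 of 65 members lay below 0, against 50.1%. No member was called by limma, where 1.88% of all probe sets were, and at an unadjusted p under 0.05, 9 members were lower and 1 was higher. In 23 members both inhibitor arrays lay below both controls, or 35.4%, against 20% of all probe sets, and in 8 above, against 20.3%. Without the inhibitor replicate 2 the median was -0.06.

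The 6 members of smallest p at 8 h in Raji were all of the small subunit. MRPS5 read 8.28 and 8.31 with the inhibitor and 8.73 and 8.67 with the control, and its log2 change of -0.41 ± 0.13 (SE) had an adjusted p of 0.145 by limma. MRPS35 read 8.79 and 8.72 against 9.22 and 9.17, a change of -0.44 ± 0.14. In both genes the compounds' arrays lay apart by more than the replicates of either. MRPS15 had -0.49 ± 0.16, MRPS18B -0.47 ± 0.18, MRPS24 -0.34 ± 0.14 and MRPS34 -0.39 ± 0.16.

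Averaged over both times in Raji, MRPL41 rose by 0.93 ± 0.19 (SE) and MRPS5 fell by 0.37 ± 0.09 (SE), with adjusted p of 0.0121 and 0.0258 by limma, where 6.29% of all probe sets were called, 4.3% higher and 1.99% lower. The median was -0.02, and 37 of 65 members lay below 0, against 50.4% of all probe sets. MRPS5 was thus called lower over both times in each line. Leaving out 1 array at a time gave 0 calls without the 8 h inhibitor replicate 1, and 1 call, higher, without either 4 h inhibitor array, the 8 h inhibitor replicate 2, the 4 h control replicate 2 or the 8 h control replicate 1. It gave 3 calls, 1 of them higher, without the 4 h control replicate 1, and 2, both higher, without the 8 h control replicate 2, so that no lower call was left in 7 of these 8 fits. Fitting Raji alone gave 0, and quantile normalization 5, of which 4 were lower.

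**Figure D3:**
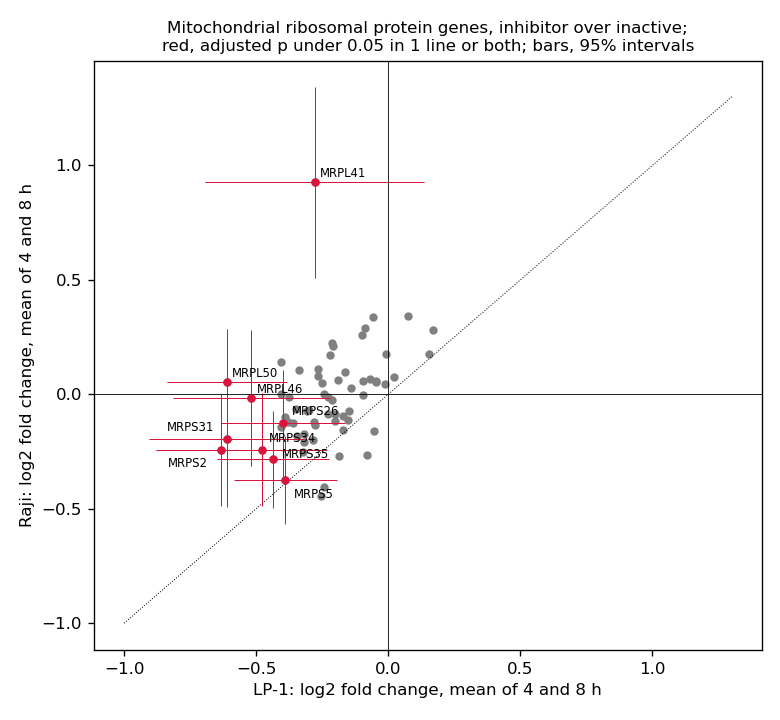
Log2 fold change of each gene averaged over 4 and 8 h, in LP-1 (horizontal) and Raji (vertical); each point is a gene, red points were called in at least 1 line and carry 95% intervals, and the dotted line marks equal change. Of the 65 points 60 lie above the dotted line, and MRPL41 lies farthest from it at -0.28 in LP-1 and 0.93 in Raji.

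The difference between the lines was tested for each gene and no member passed. By limma, 0 members were called for the response of Raji minus that of LP-1 at 4 h, where 0.114% of all probe sets were, 0 at 8 h, where 0.245% were, and 0 over both times, where 0.945% were. At an unadjusted p under 0.05 the counts were 10, 3 and 10, all with the response of LP-1 the lower. MRPL50 came nearest over both times, with a difference of 0.66 on the log2 scale (95% interval 0.34 to 0.99, limma adjusted p = 0.0612), followed by MRPL41 with 1.20 (0.62 to 1.79, limma adjusted p = 0.0618). In 60 of 65 members the response of LP-1 lay below that of Raji, with a median difference of 0.19 against 0.01 over all probe sets, a median that was 0.08 with quantile normalization. Over all probe sets 49.1% had a difference below 0, against 5 of 65 members. At 4 h alone the median difference was 0.28, and 0.01 with quantile normalization.

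Between times, 0 members were called by limma in either line, where 0.0% of all probe sets were. At an unadjusted p under 0.05, 2 members in LP-1 had a higher response at 8 h than at 4 h and 2 in Raji a lower one. The LP-1 medians were -0.26 at 4 h and -0.27 at 8 h as deposited, and -0.10 and -0.34 with quantile normalization. In Raji 53 of 65 members had a lower response at 8 h than at 4 h, with a median difference of -0.15 against -0.04 over all probe sets, of which 55.3% lay below 0.

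In all 4 comparisons, 22 members lay below 0, or 33.8%, against 10.6% of all probe sets. Only MRPS14 lay above 0 in all 4, as did 10.1% of all probe sets, with log2 changes of 0.05, 0.10, 0.31 and 0.37 that were not called. In 5 members, or 7.69%, both inhibitor arrays lay below both controls every time, against 2.04% of all probe sets. In Raji alone 24 members lay below 0 at both times, against 29.4% of all probe sets.

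Against untreated cells the inactive enantiomer changed no member by limma in either line at either time, where 0.0136% of all probe sets were called in LP-1 at 4 h, 0.504% at 8 h, and 0.0% in Raji at either time. At an unadjusted p under 0.05, 0 members were lower and 0 higher in LP-1 at 4 h, 5 and 1 at 8 h, 9 and 0 in Raji at 4 h, and 3 and 1 at 8 h. The median log2 change was -0.06 and -0.13 in LP-1 and -0.13 and 0.04 in Raji, at 4 and 8 h. In Raji at 4 h the mean of the control arrays lay below that of untreated cells in 52 of 65 members, against 57.8% of all probe sets, and these are the same arrays against which the inhibitor was read.

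**Figure D4:**
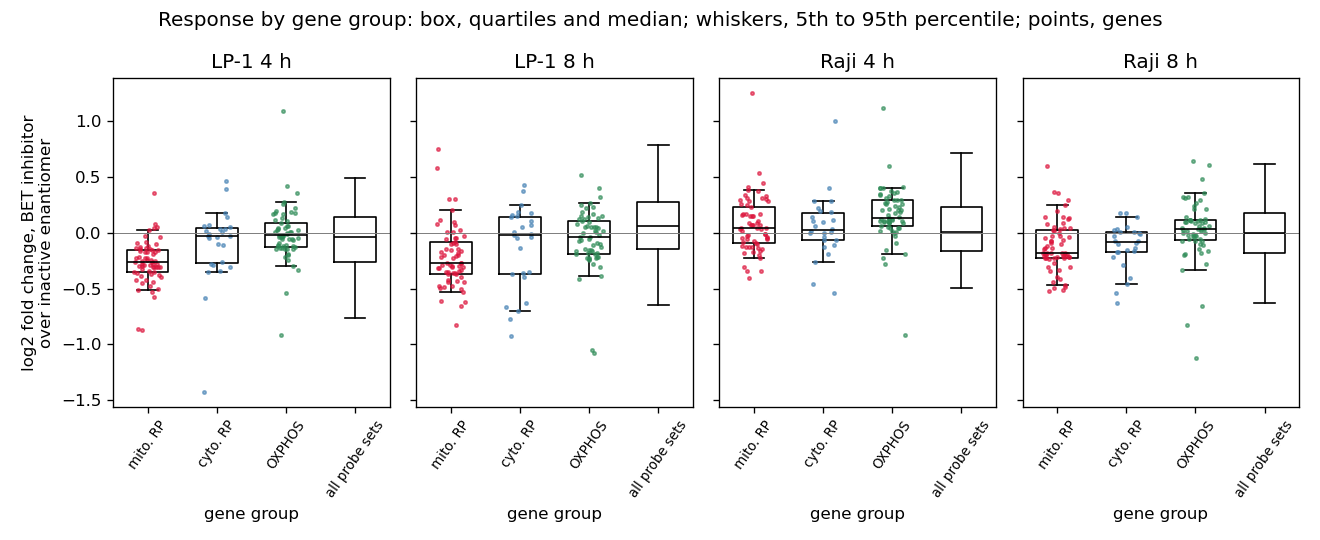
Log2 fold change (vertical axis), inhibitor over inactive enantiomer, of the mitochondrial ribosomal protein genes (mito. RP), cytosolic ribosomal protein genes (cyto. RP), nuclear oxidative phosphorylation genes (OXPHOS) and all probe sets, in each line and time; boxes show quartiles and median, whiskers the 5th to 95th percentile, and points single genes. In LP-1 the mitochondrial ribosomal box lies below 0, with medians of -0.26 and -0.27 and upper quartiles of -0.15 and -0.08, while the medians of the other groups lie between -0.04 and 0.06.

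Ribosomal proteins of the cytosol, which build the ribosome that translates nuclear messages, were taken as a comparison. Of 26 such genes 0 were called by limma in any of the 4 comparisons, and at an unadjusted p under 0.05 the largest number lower was 3. Their median log2 change was -0.02 at 4 h and -0.02 at 8 h in LP-1, and 0.02 and -0.08 in Raji. The 60 nuclear genes of oxidative phosphorylation, whose products assemble with those the mitochondrial ribosome makes, had medians of -0.02 and -0.04 in LP-1 and 0.14 and 0.04 in Raji, and again 0 were called by limma in each, with 3 at most lower at an unadjusted p under 0.05. The groups were not tested against each other.

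The genes that work with the mitochondrial ribosome were also read. Other scalings and fits with an array left out are not given for these lists. Of 17 measured genes of mitochondrial DNA transcription and maintenance, 16 lay below 0 in LP-1 at 4 h, against 55.1% of all probe sets. Their median was -0.34, and 2 fell, TWNK and MTERF1, where 2.28% of all probe sets were called. TWNK, the helicase of the mitochondrial replication fork, fell by 1.55 ± 0.12 (SE) at 4 h and by 0.99 ± 0.12 at 8 h on the log2 scale, with adjusted p of 0.000167 and 0.00071 by limma. MTERF1, which ends transcription on mitochondrial DNA, fell by 1.04 ± 0.18 at 4 h. At 8 h PRORP, a subunit of mitochondrial RNase P, fell by 0.75 ± 0.15 and POLRMT, the mitochondrial RNA polymerase, by 0.45 ± 0.11. Their limma adjusted p was 0.0118 and 0.0321, and 5.73% of all probe sets were called at that time. In Raji 2 were called, both lower at 8 h, where 1.88% of all probe sets were called. They were TFB2M, which helps POLRMT start, at -0.88 ± 0.18 and TWNK at -0.59 ± 0.12 (limma adjusted p = 0.0299 and 0.0307). The genes of smallest p in Raji at 4 h went both ways. TWNK had -0.37 ± 0.12, TEFM 0.43 ± 0.17 and POLRMT 0.26 ± 0.11, none called.

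Of 20 measured assembly and ribosomal RNA processing genes, 17 lay below 0 in LP-1 at 4 h, against 55.1% of all probe sets. Their median was -0.32, and 2 fell, where 2.28% of all probe sets were called. These were MRM3, at -0.56 ± 0.13 (SE), and NSUN4, at -0.64 ± 0.15, which methylate the ribosomal RNA of the large and the small subunit. Both lay near the threshold (limma adjusted p = 0.0394 and 0.0453). At 8 h 0 were called by limma, with 3 lower and 1 higher at an unadjusted p under 0.05, and the median was -0.09. In Raji 0 were called at 4 h and 0 at 8 h by limma, with 2 lower and 2 higher, then 1 lower and 1 higher, at an unadjusted p under 0.05.

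Of 13 measured translation factors and translation-linked proteins, 0 were called at 4 h in LP-1 by limma, where 2.28% of all probe sets were. At an unadjusted p under 0.05, 4 were lower and 1 higher at 4 h. At 8 h 3 fell, where 5.73% of all probe sets were called. TACO1, an activator of COX1 translation, fell by 0.88 ± 0.14 (SE), LETM1, of the inner membrane, by 0.80 ± 0.17, and MRRF, which recycles the ribosome after release, by 0.52 ± 0.13. Their limma adjusted p was 0.00392, 0.0169 and 0.0381. The medians were -0.32 at 4 h and -0.26 at 8 h. In Raji 0 were called at either time by limma, with 1 lower and 2 higher at 4 h and 1 each way at 8 h at an unadjusted p under 0.05.

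Of 15 measured genes that charge mitochondrial transfer RNAs, 1 fell in LP-1 at each time, where 2.28% and 5.73% of all probe sets were called. MARS2, the methionyl-tRNA synthetase, fell by 0.80 ± 0.13 (SE) at 4 h, and QRSL1, a subunit of the enzyme that makes glutaminyl-tRNA, by 1.00 ± 0.20 at 8 h. The medians were -0.27 and 0.02. In Raji 0 were called by limma, with 0 lower at 4 h and 2 lower at 8 h at an unadjusted p under 0.05. Of 3 further mitochondrial ribosomal proteins that carry other symbols, DAP3, CHCHD1 and GADD45GIP1, 0 were called in any of the 4 by limma and 0 had an unadjusted p under 0.05. Their log2 changes in LP-1 at 4 and 8 h were 0.04 and 0.17 for DAP3, -0.44 and 0.05 for CHCHD1, and 0.31 and 0.02 for GADD45GIP1, so that all but 1 of these values lay above 0.

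**Figure D5:**
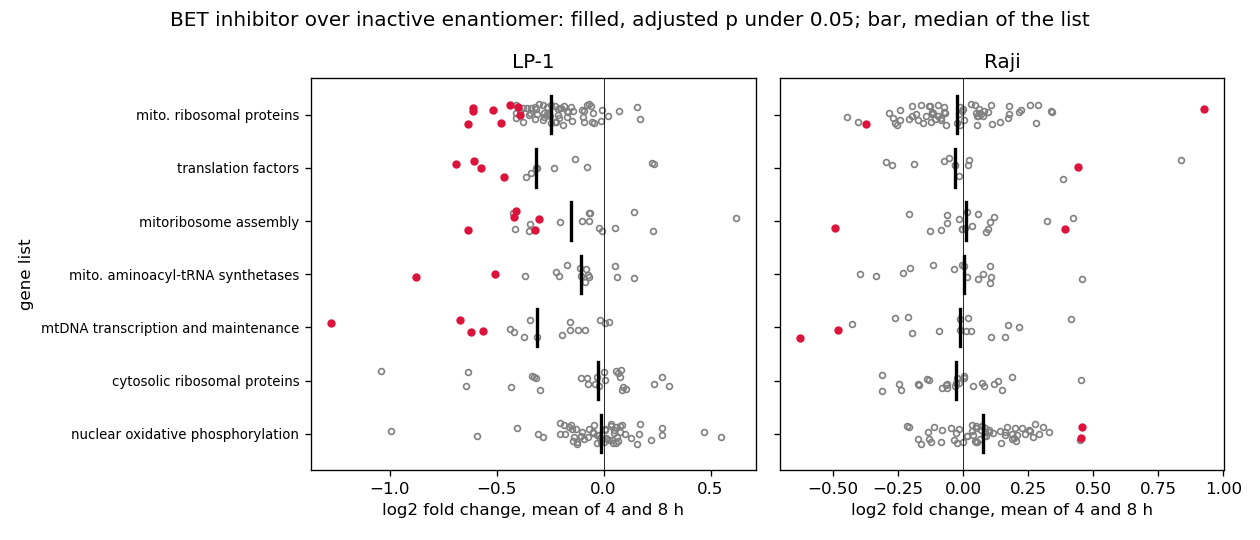
Log2 fold change averaged over 4 and 8 h (horizontal axis), inhibitor over inactive enantiomer, for the genes of each list (vertical axis) in LP-1 and Raji; each point is a gene, filled points had an adjusted p under 0.05, and bars are medians. In LP-1 the medians of mitochondrial ribosomal proteins, translation factors and mitochondrial DNA genes are -0.24, -0.32 and -0.31, and in Raji -0.02, -0.03 and -0.01.

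Among 13 measured regulators of mitochondrial genes, MYC, PPRC1 and PPARGC1A fell in LP-1 at both times. Over all probe sets 2.28% were called in LP-1 at 4 h and 5.73% at 8 h. PPRC1 and PPARGC1A are coactivators that bind NRF1 and other factors of mitochondrial genes. PPRC1 fell by 1.21 ± 0.13 (SE) at 4 h and 1.20 ± 0.13 at 8 h, and PPARGC1A by 1.22 ± 0.17 and 0.93 ± 0.17. DDIT3, a factor of the stress response, rose by 1.03 ± 0.18 at 4 h, and CREB1 rose by 0.91 ± 0.15 at 8 h. In Raji MYC was called at both times and PPRC1 fell at 8 h, by 0.57 ± 0.13 (limma adjusted p = 0.0486). Of all probe sets 1.78% were called in Raji at 4 h and 1.88% at 8 h. The part of any of these in the members' values was not tested.

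In untreated cells 13 of 65 members differed between the lines, 10 lower and 3 higher in Raji. Over all probe sets 24.3% were called, 17.5% lower and 6.79% higher, so the members were called no more often than probe sets at large. MRPS14, of the small subunit, read 6.92 and 7.29 in Raji and 8.54 and 9.0 in LP-1, a 3.16-fold lower signal (limma adjusted p = 0.000122). MRPL43 read 5.54 and 5.60 against 7.23 and 7.11, or 3.03-fold lower, and MRPL40, part of the central protuberance, 5.83 and 6.19 against 7.50 and 7.57, or 2.86-fold lower. The arrays of the lines lay far apart in all 3 genes, and those differences also stood on every treated array.

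MRPL33, MRPL13 and MRPL24 followed, at 2.05-fold, 1.94-fold and 1.61-fold lower in Raji. The members higher in Raji were MRPL51 at 1.48-fold, MRPL4 at 1.42-fold and MRPS5 at 1.32-fold. Over all members the median log2 difference was -0.19, against -0.03 over all probe sets, but it was -0.06 when the arrays were centred on their medians and 0.05 with quantile normalization, so the group as a whole had no settled direction. The 10 lower and 3 higher calls became 7 and 9 with centring and 6 and 11 with quantile normalization. The count of 13 fell to 6 without the LP-1 replicate 2 and to 7 without either Raji array.

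The members' neighbours were read as well. Of the 58 members in the promoter table, 17 share their start region with a protein-coding gene that runs the other way within 1000 bases, or 29.3%, against 12.3% of protein-coding genes. MRPL46 and MRPS11 are each other's neighbour, with LP-1 changes over both times of -0.52 and -0.09. Of 11 measured neighbours 7 lay below 0, against 45.7% of all probe sets, with a median of -0.09. By limma 2 were called, MRPL46 beside MRPS11 and PTCD2 beside MRPS27, where 7.06% of all probe sets were. MRPL46 and MRPS11 are members themselves, and the median is the value of MRPS11. ZNF189, the neighbour of MRPL50, had -0.59 in LP-1 and 0.53 in Raji, and PIERCE1, that of MRPS2, 0.06 and 0.04.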

How the data were processed

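Total RNA of 20 samples was amplified and hybridised to Affymetrix exon arrays, per the labels. The authors deposited log2 signals per probe set, made with RMA in Affymetrix Expression Console and tied to hg19, per the submitters' processing notes, with versions not given in the sources used here. Gene symbols came from the platform's probe table, in which 14432 probe sets have 1 symbol, 2408 several and 5171 none. The values were used as deposited, with no filter. Each probe set was fitted with limma 3.58.1 in R 4.3.3 as 1 mean per group over all 20 arrays, on 10 residual degrees of freedom, and p-values were adjusted by Benjamini-Hochberg over 22011 probe sets, called under 0.05. Each p in the text is from that fit unless its sentence names a left-out array, another scaling or a line fitted alone, and SE and 95% intervals are its own. The script was tested on simulated data. With 2 arrays a group, the number of arrays limits the precision: the median 95% interval of a member at 8 h in LP-1 reached 0.38 on the log2 scale to either side. The series calls the replicates biological but does not say that they came from separate cultures, so p-values measure the spread between these arrays. No scan date or batch was used.

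The members and gene lists were chosen with earlier results of these data known, so their counts are descriptions. The text names each member called in a treatment comparison or, where fewer than 6 were, the 6 of smallest p, up to 6 calls each way over both times, the 6 largest calls each way between untreated lines, MRPL12, MRPL58, MRPS18B and MRPS30 throughout, and up to 4 genes of smallest p per other list and line. Members listed for arrays that lay apart, a motif, a neighbouring gene or a shared sign were named after their values were seen. Alternatives were centring and quantile normalization, both of the deposited RMA values, a fit per line, variance trend and replicate block. Others were leaving out the 1 in 3 probe sets of lowest mean and leaving out each array. Added after seeing the data were the difference between lines over both times and the counting of probe sets with several symbols. Each member had 1 probe set, so the choice among probe sets of a gene changed nothing.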

Additional observations from a re-analysis of the deposited data

How the results depend on the processing

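With 2 arrays a group, several counts of called members moved with the processing, while the LP-1 medians at 4 and 8 h kept their sign in every alternative run. Centring each array on its median gave 7 called members in LP-1 at 8 h (4 as reported), 0 in Raji at 4 h (1) and an untreated median difference of -0.057 (-0.19). Fitting a line alone gave 0 in LP-1 at 4 h (1), 1 at 8 h, 2 over both times (8), 0 in Raji at 4 h and 0 over both times (2). Quantile normalization gave 10 in LP-1 at 8 h, 5 in Raji over both times, and medians of -0.10 in LP-1 at 4 h (-0.26), -0.087 in Raji at 4 h (0.05) and 0.053 for the untreated difference, and it turned MRPL12 in LP-1 at 4 h to 0.073 and MRPL50 in Raji at 4 h to -0.053. Leaving out the probe sets of lowest mean gave 7 in LP-1 at 8 h, 14 over both times and 2 for the line difference over both times (0), and intensity trend with robust variances gave 1 for that difference. With the replicate number as a block, 2 members were called in LP-1 at 8 h and 0 in Raji at 4 h, and the other counts stayed within 1.5 times. Samples of 1 number did not deviate together (r from -0.03 to 0.12 in LP-1 and from -0.16 to 0.05 in Raji), so the pairing rests on a number alone.

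Leaving out 1 array at a time gave 0 to 3 called members in LP-1 at 4 h, 0 to 2 at 8 h and 2 to 11 over both times, 0 to 0 in Raji at 4 h and 0 to 3 over both times, 6 to 9 between untreated lines, and 0 to 1 for the line difference at 4 h and 0 to 1 over both times. The medians ran from -0.30 to -0.21 and from -0.33 to -0.18 in LP-1 at 4 and 8 h, from -0.055 to 0.15 and from -0.15 to -0.055 in Raji, and from -0.28 to -0.14 between untreated lines. In Raji MRPL50 ran from -0.062 to 0.20 at 4 h and from -0.066 to 0.15 at 8 h, MRPL12 at 4 h from -0.13 to 0.012 and MRPS2 at 8 h from -0.38 to 0.0028. Where a group kept 1 array, that array was taken to vary like the other groups. The cause of these changes was not tested.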

Other observations

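Of the nuclear genes of oxidative phosphorylation in Raji at 4 h, 53 of 60 had a log2 change above 0, with a median of 0.14 against 0.01 over all probe sets, and 0 were called by limma, with 3 higher and 0 lower at an unadjusted p under 0.05. The mean of these genes was 8.11 and 8.14 on the inhibitor arrays, 7.88 and 8.05 on the control arrays and 8.10 and 8.23 on the untreated arrays, so the control arrays were the low ones. Control replicate 1 also had the lowest median of the 20 arrays, at 5.13, and its part in the result was not tested. Over both times 2 of 60 were called higher, against 4.3% of all probe sets, NDUFA8 at 0.46 ± 0.10 (SE) and NDUFV3 at 0.45 ± 0.11, both subunits of complex I and named after their values were seen. In LP-1 the same list had 31 of 60 below 0 over both times.

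The 18 probe sets that list a mitochondrial ribosomal protein gene beside another symbol had medians of -0.09 and -0.09 in LP-1 and 0.01 and -0.11 in Raji at 4 and 8 h, with 0 called by limma in each and, at an unadjusted p under 0.05, 1, 3, 0 and 2 lower. MRPS17 had the widest range over the 4 comparisons among the 65 members, at -0.86 in LP-1 at 4 h and 0.75 at 8 h, each with an SE of 0.67, and passed no test. Between untreated lines DAP3 and CHCHD1, mitochondrial ribosomal proteins with other symbols, were lower in Raji, with log2 differences of -1.48 and -1.19.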
